A study of Mus musculus with 10 samples.

Results

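Control portal tracts of the 1-week mouse liver were described from 5 arrays, out of 10 in the series, by the signal of 22180 genes and by how that signal varied from array to array. The arrays are those whose titles name a control portal tract, and a gene is any symbol held by a probe set that carries exactly 1 symbol. The tracts were cut by laser capture from frozen sections of 1-week-old C57Bl/6J livers, with RNA pooled from 12 to 20 tracts for each replicate. The labels call the genotype "control" and name no treatment, no allele and no Cre or transgene. They do not say that each replicate came from a separate mouse, so the spread given here may be partly technical. The other 5 arrays, of Jag1+/-Rfng+/- tracts, enter no value here beyond the choice of probe set for genes with several.

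A portal tract is the corner of the liver lobule where a branch of the portal vein, a hepatic artery and bile ducts run together in a sheath of matrix. Ducts form there from liver progenitors that line the portal vein, in a process that Notch signalling drives and that goes on after birth in the mouse. Hepatocytes next to the tract have periportal functions such as the urea cycle, while those around the central vein carry glutamine synthesis and much of drug metabolism under Wnt signals. In the newborn mouse the liver still makes blood cells.

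Values are log2 expression values, and each mean is given with its standard deviation (SD, n = 5 arrays). Array medians over all probe sets lay between 3.22 and 3.29, and the correlation across genes between pairs of arrays ran from 0.972 to 0.988 over 10 pairs, with controls 2 and 3 the most alike and controls 3 and 4 the least. Arrays have no read depth, and their number limits the precision. With 1 group there is no comparison to test, so no p-value is given. No detection calls were used, and a background level was set at 3.161, the 95th percentile of 1425 odorant, vomeronasal and taste receptor genes. Signal also depends on each probe set, so an order of genes is an order of signal and not of transcript number. In pooled tissue, fewer cells of a type and less RNA per cell cannot be told apart. The sample names hold 3 different numbers whose meaning is not given: 1 for control 1, 1 shared by controls 2, 3 and 4, and 1 for control 5.

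The strongest signals in control portal tracts came from plasma protein genes of the hepatocyte and from the mitochondrial genome. Transthyretin (Ttr), a carrier of thyroid hormone and retinol, was first at 12.43 ± 0.03 (SD, n = 5). It was followed by Ahsg, which encodes fetuin-A, at 12.30 ± 0.02 and albumin (Alb) at 12.22 ± 0.06. Apoa2, an apolipoprotein of high density lipoprotein, read 12.18 ± 0.01, and alpha-fetoprotein (Afp), the serum protein of fetal liver, came next at 11.88 ± 0.07. Of the 30 genes with the highest signal, 9 belonged to the list of 29 measured hepatocyte markers and 8 were among the 10 measured genes of the mitochondrial genome. ND4, a subunit of respiratory complex I, led the mitochondrial genes at 11.87 ± 0.10. Fibronectin (Fn1) was the gene of the matrix list in the first 30, at 11.34 ± 0.08, and it is also a plasma protein that hepatocytes secrete. Others in the first 30 serve every cell, among them Rn7sk, a small nuclear RNA that restrains transcription elongation (11.88 ± 0.05), B2m, the light chain of MHC class I (11.83 ± 0.04), Tuba1c and Hspa8.

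Hepatocyte genes as a whole had strong signal and small SDs. All 29 measured members of the hepatocyte list were above the background level on all 5 arrays, against 53.9% of all genes (11950 of 22180). Their median stood at the 99.5th percentile of signal, where the median of all genes is 50 by construction, and their median SD was 0.12 against 0.24 over all genes above background. The strongest of them lie at the top of the deposited values, whose maximum is 12.47, and saturation, which would also give small SDs, was not tested. Hnf4a, the transcription factor that maintains hepatocyte identity, read 7.07 ± 0.12. Coagulation and complement genes (26 of 26 above background) had a median percentile of 98.6, and the acute phase list (14 of 17) one of 98.0. Plg (plasminogen) read 11.08 ± 0.13 and the metallothionein Mt2 10.65 ± 0.41. Among cytochrome P450 genes, 18 of 23 were above background, led by Cyp2b9 at 10.68 ± 0.17 and Cyp2e1 at 10.46 ± 0.69.

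Genes of fetal and imprinted growth were still strong at 1 week, with 15 of 16 above background and a median percentile of 93.8. The growth factor Igf2 read 10.07, 10.09, 10.14, 10.23 and 10.10 on controls 1 to 5, which is a nearly flat line at 10.13 ± 0.06. The amino acid transporter Slc38a4 read 10.18 ± 0.28 and the imprinted zinc finger gene Peg3 9.51 ± 0.24. Proliferation genes were all measured above background (23 of 23), with Pcna, the clamp of DNA polymerase, at 8.37 ± 0.26 and Mki67 at 7.86 ± 0.22. Embryonic globins read at background: Hbb-y read 1.79 ± 0.08 and Hbb-bh1 1.93 ± 0.14, both on every array under the background level.

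Markers of duct, artery and portal stroma were present, as the label of portal tract implies, beside those of liver parenchyma. Of 28 measured biliary genes, 24 were above background on all 5 arrays, Krt7, Krt19, Epcam and Sox9 among them. At a stricter level of 4.94, the 99th percentile of the same receptor genes, 14 remained. Over all genes, 6270 of 22180 were above that level on all 5 arrays. Krt7 read under it on every array, and Krt19 on controls 1 and 4. Krt19 read 4.79, 5.49, 5.90, 4.52 and 4.96 on controls 1 to 5, Krt7 averaged 4.43 ± 0.48, Epcam 6.34 ± 0.52 and Sox9, a transcription factor of the early duct, 5.94 ± 0.49. Cftr, the chloride channel of the mature duct, averaged 2.08 ± 0.21 and the secretin receptor gene Sctr 2.86 ± 0.20, both at background. The 4 biliary genes with the most signal, Cd24a (9.89 ± 0.14), Krt18, Cdh1 and Krt8, also belong to other epithelia, and hepatocytes make Krt8, Krt18 and Cdh1.

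Portal mesenchyme was well represented. Of 25 measured genes of interstitial matrix, 24 were above background, with a median percentile of 91.6. The proteoglycan gene Bgn averaged 10.29 ± 0.54 and the collagen I gene Col1a2 10.23 ± 0.47. Among portal fibroblast markers 18 of 23 were above background, including elastin (Eln, 8.24 ± 0.60), Thy1 (6.05 ± 0.64) and the small proteoglycan gene Dcn (9.21 ± 0.15). Smooth muscle and pericyte genes counted 16 of 19 (9 at the stricter level), led by Rgs5 (8.00 ± 0.40) and Acta2 (7.85 ± 0.57), and the smooth muscle myosin Myh11 averaged 5.55 ± 0.88. Cnn1, a defining marker of smooth muscle, dipped under the background level on control 4 alone, at 3.03. Stellate cell genes were present too, 11 of 13 (6 at the stricter level), with Reln at 7.50 ± 0.52 and Lrat, which stores retinol as esters, at 5.83 ± 0.72.

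Endothelial genes covered several vessel types. All 14 measured pan-endothelial genes and all 11 arterial genes were above background, the junction gene Cdh5 at 8.64 ± 0.29, the arterial gap junction gene Gja5 at 5.59 ± 0.55 and the arterial ephrin Efnb2 at 5.43 ± 0.83. At the stricter level 11 of 14 pan-endothelial genes but only 2 of 11 arterial genes remained, beside 6270 of 22180 over all genes. Gja5, Efnb2, Gja4 and Dll4 each read under this level on some array. Sinusoidal markers were above background in 10 of 12 cases, with the scavenger receptor gene Stab2 at 7.77 ± 0.21. Among lymphatic genes, Prox1 averaged 8.11 ± 0.21, but hepatocytes also make it, and Pdpn, which they do not, averaged 3.25 ± 0.19 and was under the background level on 3 of 5 arrays.

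**Figure D1:**
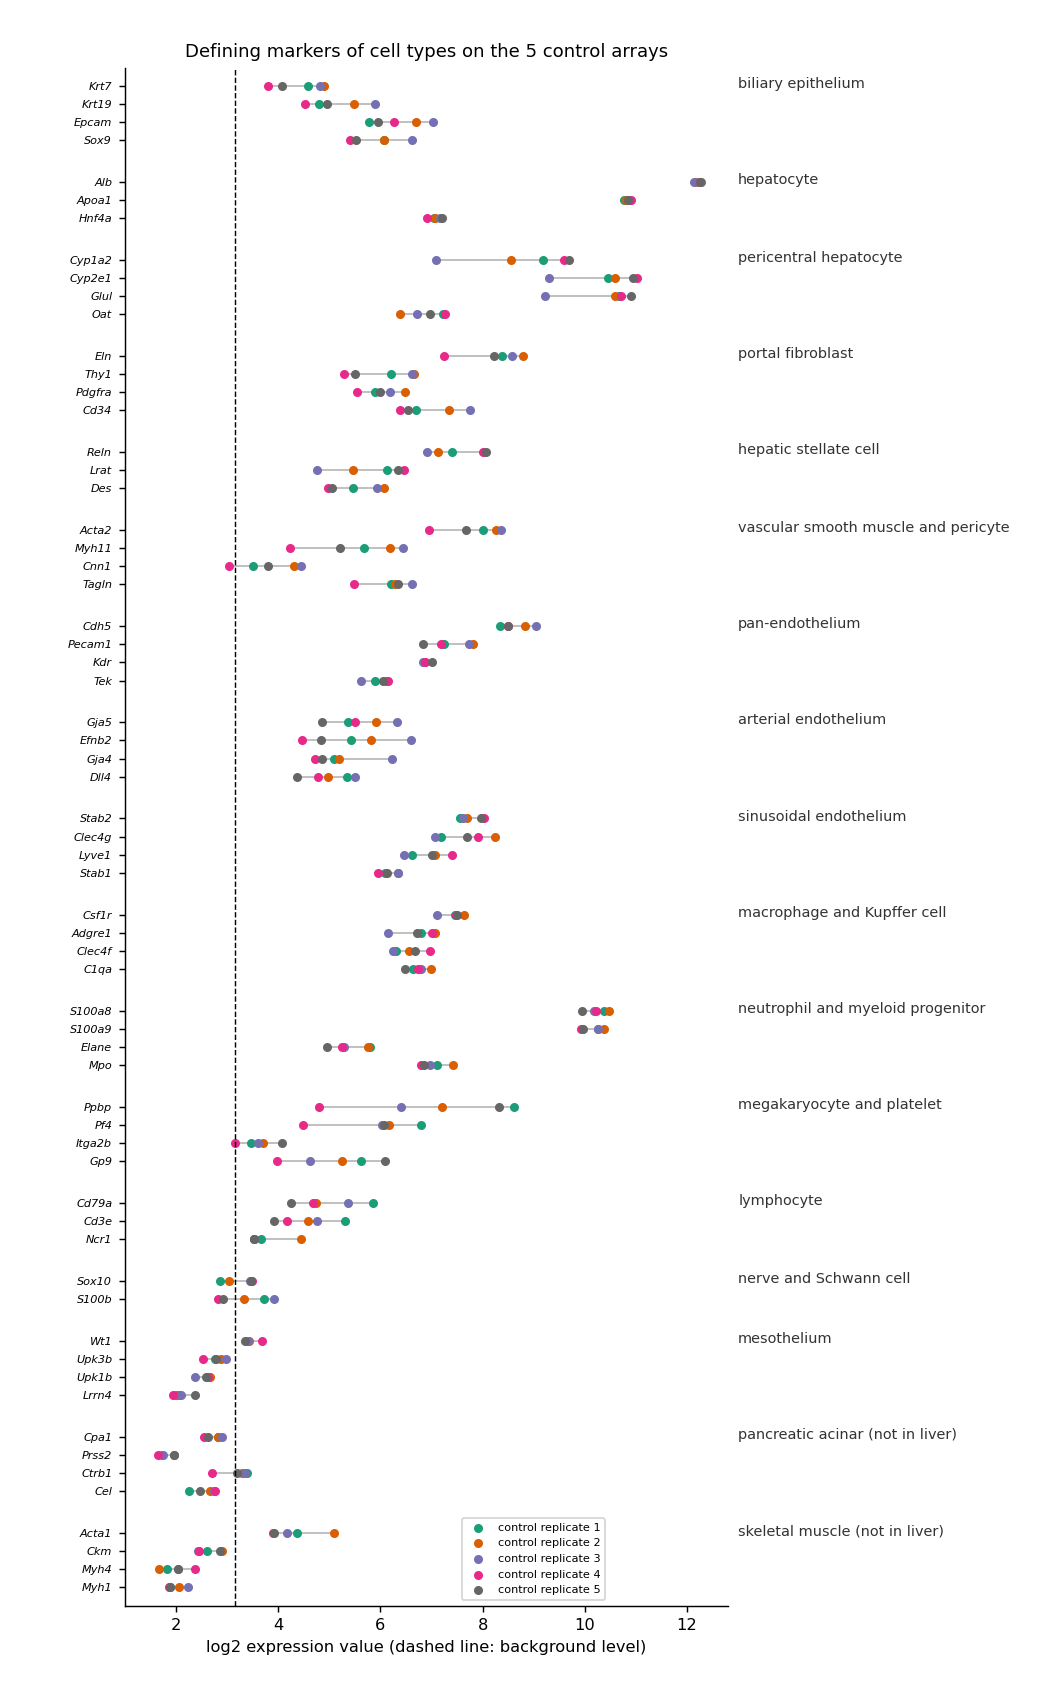
Log2 expression value of the defining markers of cell types on each of the 5 control arrays, 1 colour per array, with grey lines from the lowest to the highest array and a dashed line at the background level of 3.161. Alb sits furthest to the right, and Alb and Apoa1 span the least from array to array (0.136 and 0.149). Hnf4a lies further left at a mean of 7.07, and Krt19 spreads from 4.52 to 5.90. Most markers of mesothelium, pancreas and skeletal muscle lie at or left of the line, and the nerve markers Sox10 and S100b straddle it.

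Blood cell genes were part of the baseline. The neutrophil genes S100a8 and S100a9, which encode the subunits of calprotectin, averaged 10.24 ± 0.20 and 10.16 ± 0.20, and 21 of 22 genes of the neutrophil list were above background (12 at the stricter level). Mpo and Elane, granule enzymes made by neutrophil precursors, averaged 7.03 ± 0.25 and 5.41 ± 0.36. Macrophage and Kupffer cell genes counted 20 of 21, with Lyz2 at 9.61 ± 0.42, Csf1r at 7.44 ± 0.19 and Clec4f, a Kupffer cell lectin, at 6.55 ± 0.30. In the erythroid list 14 of 20 were above background (4 at the stricter level), with the transferrin receptor gene Tfrc, which other dividing cells share, at 7.32 ± 0.75 and the red cell anion exchanger Slc4a1 at 7.09 ± 0.71. The adult globin genes had no probe set of 1 symbol and were not analysed here. Lymphocyte genes were sparser, 13 of 21 (2 at the stricter level), and Cd4 (2.81), Ms4a1 (2.92), Rag2 (2.12) and Dntt (2.77) averaged under the background level. Over all genes, 6270 of 22180 were above the stricter level.

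Other tissues left little signal. Mesothelial genes were above background in 1 of 7 cases, nerve and Schwann cell genes in 2 of 12, pancreatic acinar genes in 0 of 7 and skeletal muscle genes in 2 of 10. The gene above background in the mesothelial list, Wt1, averaged 3.45 ± 0.14, close to the line. Spermatid genes gave 1 of 9, Odf1, at 10.94 ± 0.07 and rank 54 of all genes, while Prm1 averaged 2.25 ± 0.10 and Tnp1 2.59 ± 0.19. With the mean of its probe sets in place of the brightest, Odf1 came to 6.69. Intestinal genes gave 3 of 10, with the fatty acid binding protein Fabp2, which liver also makes, at 8.85 ± 0.47, Krt20 at 6.36 ± 0.49 and Tff3 at 5.80 ± 0.37, whereas Sis and Muc2 read 1.84 ± 0.10 and 2.83 ± 0.11.

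From array to array most genes moved little. Among the 11950 genes above background the median SD was 0.24, and the median gap between the highest and the lowest array was 0.60, or 1.51-fold. An SD of at least 0.5 was reached by 895 of them (7.49%), and of at least 1 by 43. Spread was widest in the middle of the signal range: in 10 bins of equal size by level, the median SD was 0.14 in the lowest bin, 0.26 in the sixth, the seventh and the eighth and 0.22 in the highest. The steadiest 10 genes in the top 25% by level mixed plasma proteins (Apoa2, Ahsg, Ttr and prothrombin, F2) with housekeeping genes such as Mrpl17 of the mitochondrial ribosome and Cox8a of respiratory complex IV. F2 read 11.16, 11.13, 11.10, 11.14 and 11.14, an SD of 0.02.

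**Figure D2:**
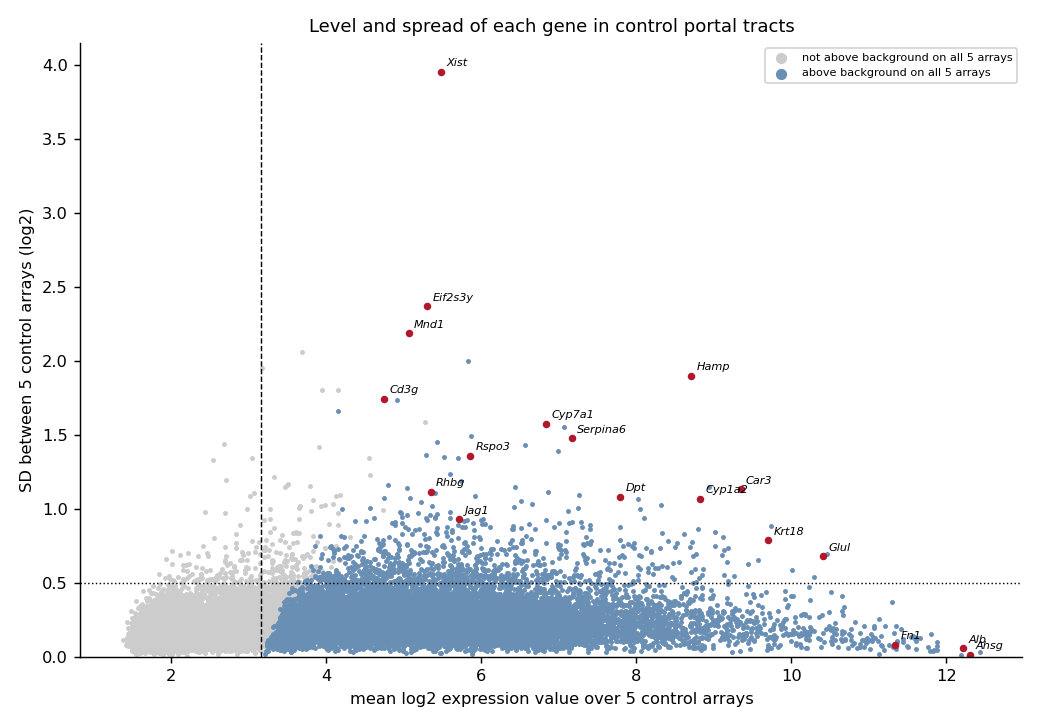
Mean log2 expression value over the 5 control arrays against the SD between them, 1 point per gene, blue where the gene was above the background level (dashed line, 3.161) on all 5 arrays and grey elsewhere; the dotted line marks an SD of 0.5. Ahsg and Alb sit at the lower right at SDs of 0.02 and 0.06, and Hamp stands far above genes of like level at an SD of 1.90.

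No direction held most of the difference between arrays, but 1 was larger than the others. The first principal component of the gene-centred values held 46.5% of the variance between arrays, with loadings of -0.01, -0.40, -0.57, 0.61 and 0.37 for controls 1 to 5, so that controls 3 and 4 lay at its ends and control 1 near the middle. The later components held 21.3%, 18.9% and 13.3%. On the side of control 3, the genes with the largest weights included Dpt, a matrix protein, Vegfd, Jag1, the cadherin Cdh11, Fbn2 and Myh11. On the side of control 4 they included Cyp7a1, Sult2a2, Rspo3, Serpina6, Cyp1a2, Rhbg and Cyp3a16, most of them genes of hepatocyte metabolism. Of the 895 genes with an SD of at least 0.5, 177 (19.8%) were highest on control 3 and lowest on control 4, the most frequent ordering.

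Genes of pericentral hepatocytes had the widest range between control arrays of all cell type lists. Cyp2e1, the ethanol-metabolizing P450, read 10.45, 10.60, 9.29, 11.01 and 10.94 on controls 1 to 5. Cyp1a2, a P450 that metabolizes aromatic amines, read 9.18, 8.55, 7.08, 9.58 and 9.69. Glul, the glutamine synthetase of the cells around the central vein, read 10.66, 10.58, 9.22, 10.70 and 10.91. In each of these genes control 3 was the lowest array, and the highest array exceeded it 3.30-fold for Cyp2e1, 6.11-fold for Cyp1a2 and 3.24-fold for Glul. Rhbg, an ammonia transporter of the same cells, spanned 7.29-fold, from 3.49 on control 3 to 6.36 on control 5. A second probe set of Glul was also lowest on control 3, at 8.82 against 9.81 to 10.18 on the others.

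Of the 12 pericentral genes above background (13 measured), 10 were lowest on control 3, where 17.7% of all genes above background were lowest, and 9 had an SD of at least 0.5. The mean of the 12 stood at 0.17, -0.10, -0.97, 0.46 and 0.45 relative to its own average, a range of 1.44 or 2.71-fold. Without control 3 the range was 0.64. Between controls 2, 3 and 4, which share a number in their sample names, it was 1.44. Aldh1a1 and Oat were the 2 members that went another way: Aldh1a1 was lowest on control 5 at 4.84 and Oat on control 2 at 6.39. Lgr5 and Notum, a receptor and a target of the Wnt pathway that central veins activate, were not in the list and were chosen after their values were seen. Lgr5 read 4.24, 3.87, 3.40, 4.90 and 4.80, and Notum 4.36, 4.33, 3.45, 4.43 and 5.14. Rspo3, a Wnt enhancer made by central vein endothelium, read 5.36, 5.56, 4.00, 7.23 and 7.16, a span of 9.38-fold with control 3 again at the bottom. The amount of tissue around central veins in each capture was not measured, and its part in these values was not tested.

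Bile acid, cytochrome P450 and fatty acid oxidation genes also had their lowest mean on control 3 and their highest on control 4, while cholesterol synthesis and oxidative phosphorylation genes had their lowest on control 2. Cyp7a1, the rate-limiting enzyme of bile acid synthesis, read 7.33, 6.17, 4.41, 8.14 and 8.11, a 13.3-fold span. Over all genes above background, 17.7% were lowest on control 3 and 25.5% highest on control 4. Among 16 genes of bile acid synthesis and transport above background, 11 were lowest on control 3 and 13 highest on control 4. Their mean had a range of 1.11, which was 0.71 without control 3. Cytochrome P450 genes had a range of 0.89, with 9 of 18 lowest on control 3 (0.49 without control 3, 0.59 without control 4), and fatty acid oxidation genes one of 0.64, with 12 of 17 lowest there (0.34 without control 3, 0.41 without control 4). Cyp3a16, a P450 of the young liver, read 7.32, 6.76, 6.05, 8.10 and 8.21. These lists share members, among them Cyp1a2 and Cyp2e1 with the pericentral list and Cyp27a1 between that list and bile acid synthesis. Cyp4a14 is in both the cytochrome P450 and the fatty acid oxidation list. Slc10a1 and Slco1b2 are in both the bile acid and the hepatocyte list. Genes of the other end of the lobule did not share the low array: of 10 periportal genes 0 were lowest on control 3 and 6 on control 2. Of all genes above background, 17.9% were lowest on control 2. The periportal mean was highest on control 4 (0.23), as in those lists, though 3 of the 10 genes were highest there, and its range was 0.53. Arg1, the last enzyme of the urea cycle, read 8.16, 7.72, 7.91, 9.27 and 8.32. The whole hepatocyte list had a range of 0.33, with Slco1b2, a bile acid uptake carrier, and Tdo2, which degrades tryptophan, as its most variable named members (SD 0.65 and 0.88).

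**Figure D3:**
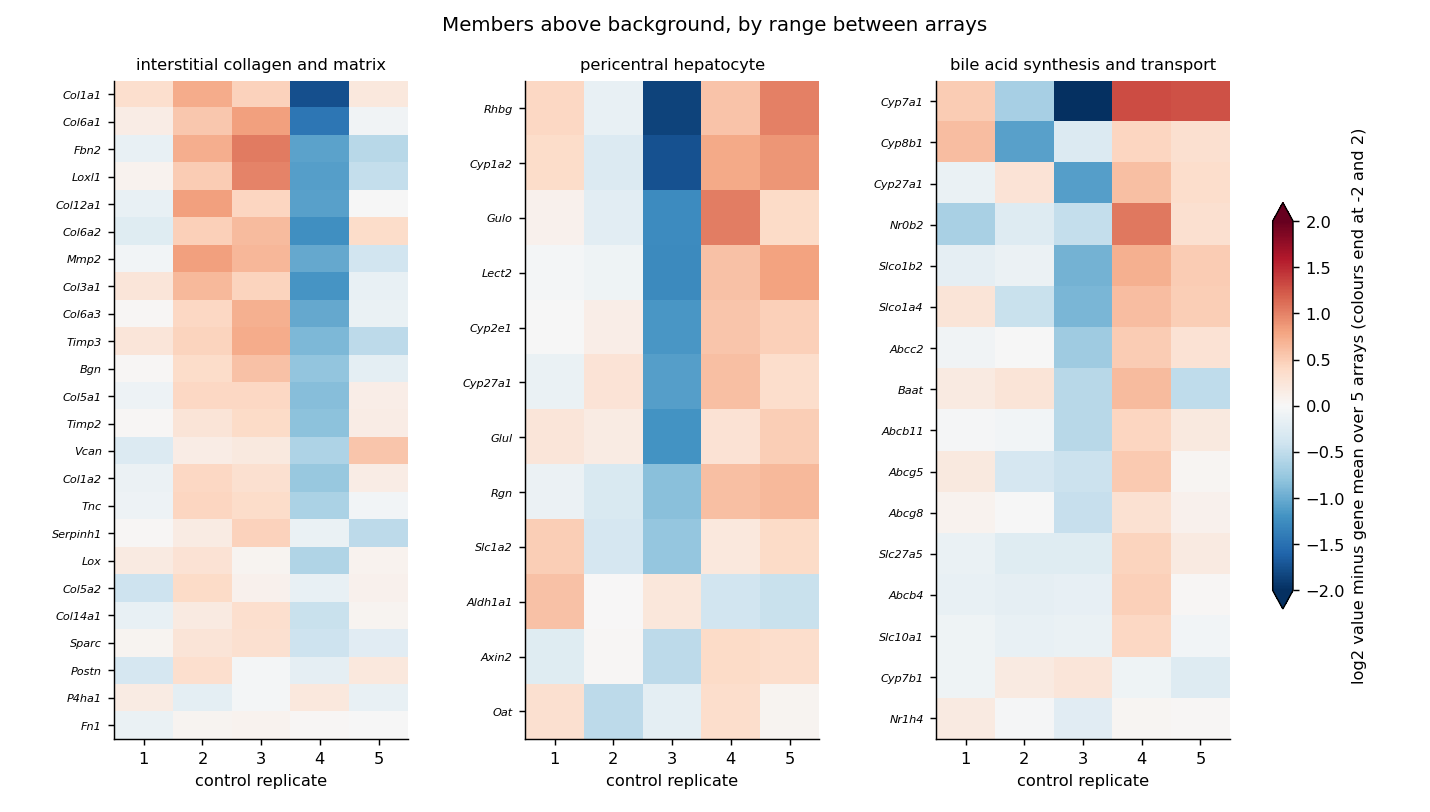
Difference of each gene's log2 value from its own mean over the 5 control arrays, for members above background of 3 lists, with columns for controls 1 to 5, red above and blue below the gene's mean. In the pericentral and bile acid panels the column of control 3 is mostly blue, and in the matrix panel the column of control 4 is, with Col1a1 at 6.30 there.

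Matrix and mesenchymal genes were lowest on another array. Col1a1, which encodes collagen I together with Col1a2, read 8.39, 8.79, 8.52, 6.30 and 8.27 on controls 1 to 5, so that control 4 stood apart from the others, 5.63-fold below the highest. Bgn read 10.31, 10.66, 10.88, 9.50 and 10.10, and its second probe set read 8.91, 9.71, 10.13, 8.00 and 8.66 in the same order. Dpt, a matrix protein of fibroblasts, ran from 6.12 on control 4 to 8.87 on control 3, a 6.75-fold span. In the matrix list 19 of 24 genes were lowest on control 4, where 23.7% of all genes above background were lowest. At the other end, 13 of the 24 were highest on control 3 and 9 on control 2, against 24.1% and 17.4% of all genes above background. The list mean stood at -0.03, 0.40, 0.44, -0.75 and -0.06, a range of 1.18 that became 0.50 without control 4.

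Portal fibroblast genes were lowest on control 4 in 16 of 18 cases, against 23.7% of all genes above background. Their range of 1.00 was 0.54 without that array. The receptor gene Pdgfrb read 6.62, 7.48, 8.38, 6.28 and 6.72. Smooth muscle and pericyte genes were highest on control 3 in 12 of 16 cases, where 24.1% of all genes above background were highest, and their range was 1.04. Myh11 read 5.68, 6.19, 6.45, 4.23 and 5.21, and Acta2 8.00, 8.27, 8.36, 6.96 and 7.67. Dcn and Lum, both fibroblast proteoglycans, were exceptions by size, with SDs of 0.15 and 0.22. Stellate cell genes did not move as a list, with a range of 0.20: Reln (7.41, 7.12, 6.91, 8.00, 8.07) and Lrat were lowest on control 3, and Cygb (7.00, 6.35, 7.21, 4.99, 6.43) and Des on control 4.

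Arterial and biliary genes ran with the stroma at the top but not always at the bottom. Arterial endothelial genes had a range of 0.93, or 0.57 without control 3. Among them 6 of 11 were highest on control 3 and 7 lowest on control 4, against 24.1% and 23.7% of all genes above background. Efnb2 read 5.43, 5.81, 6.60, 4.47 and 4.84. Pan-endothelial genes had a range of 0.35, and sinusoidal genes one of 0.45. Of the sinusoidal genes 5 of 10 were lowest on control 3 and 5 of 10 highest on control 4, against 17.7% and 25.5% of all genes above background. Biliary genes were highest on control 3 in 17 of 24 cases and lowest on control 5 in 13, where 21.2% of all genes above background were lowest, and 0 were lowest on control 3. Pkhd1, which encodes fibrocystin of the duct cilium, read 6.52, 6.64, 7.42, 6.27 and 5.37, and Muc1, a mucin of the duct surface, 5.04, 5.86, 6.69, 4.84 and 4.68. The biliary list had a range of 0.78, or 0.51 without control 3. Krt18 departed from the list, with 11.01 on control 1 and 8.88 on control 5. Its second probe set had an SD of 0.28, and control 1 was its highest array as well.

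Basement membrane genes, which coat both ducts and vessels, had a range of 0.76. They were highest on control 3 in 14 of 19 cases, against 24.1% of all genes above background. The laminin chain Lama5 read 5.29, 5.53, 6.10, 4.69 and 4.45. Notch pathway genes were above background in 23 of 27 cases (11 at the stricter level), with a range of 0.58. Of the 23, 12 were highest on control 3 and 13 lowest on control 4, against 24.1% and 23.7% of all genes above background. Jag1, the ligand whose loss causes duct paucity, had the largest SD of the list and read 5.95, 6.59, 6.57, 4.59 and 4.90, while its receptor gene Notch2 averaged 6.95 ± 0.21 and Rfng 4.82 ± 0.20. Among targets, Heyl read 6.49, 6.81, 7.41, 6.07 and 5.94 and Hes1 averaged 5.59 ± 0.14. Notch3, highest on control 3 and lowest on control 4, is in both the Notch list and the smooth muscle and pericyte list. Jag1 was high on the arrays with high stromal, arterial and biliary signal. The share of each cell type in the captures was not measured, and its part in the spread of Jag1 was not tested.

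**Figure D4:**
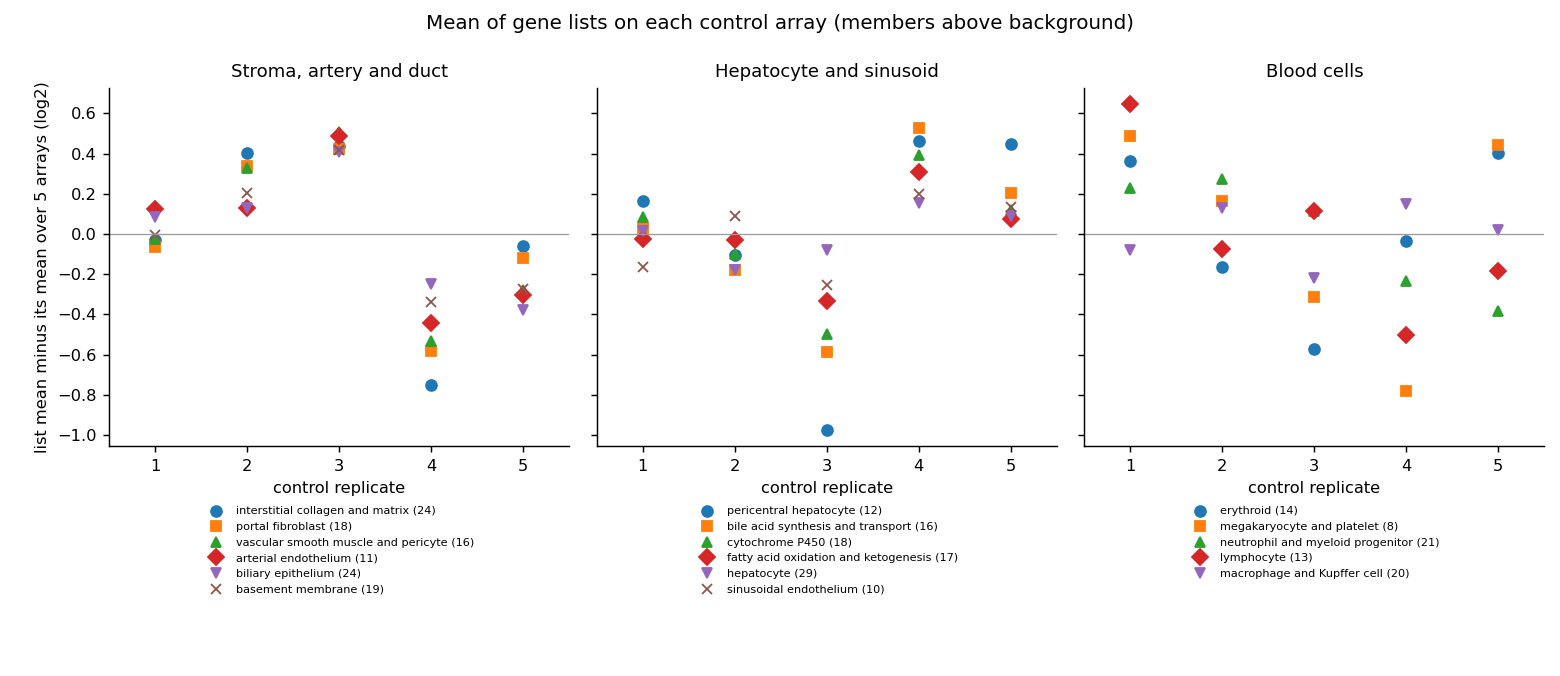
Mean over list members above background of the log2 value minus the gene's own mean, for controls 1 to 5, with 1 symbol per list and the number of genes in brackets. Stromal, arterial and biliary lists lie above 0 on control 3 and below 0 on control 4, the pericentral list falls to -0.97 on control 3, the erythroid mean is lowest on control 3 at -0.57, and the lymphocyte mean is lowest on control 4 at -0.50.

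Blood cell lists differed in where they were high and low, and some shared an end with the stromal or the pericentral lists. Erythroid genes were lowest on control 3 in 9 of 14 cases and highest on control 1 or control 5 in 13, with a range of 0.97 (0.57 without control 3). Of all genes above background, 17.7% were lowest on control 3, 16% were highest on control 1 and 17.1% on control 5. The red cell gene Rhag read 6.49, 4.85, 3.89, 5.00 and 5.67. Megakaryocyte and platelet genes had a range of 1.27, or 0.84 without control 4. They were lowest on control 4 in 6 of 8 cases, against 23.7% of all genes above background. At the stricter background level 1 of these 8 genes remained. The platelet chemokine genes Ppbp (8.61, 7.21, 6.40, 4.79, 8.32) and Pf4 (6.79, 6.16, 6.02, 4.48, 6.07) were both lowest on control 4.

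Neutrophil genes had a range of 0.66 and were lowest on control 5 in 12 of 21 cases, against 21.2% of all genes above background. Camp, a granule peptide of maturing neutrophils, read 8.85, 9.53, 9.72, 8.13 and 7.73, while S100a8 stayed between 9.95 and 10.48. Lymphocyte genes were highest on control 1 in 7 of 13 cases, where 16% of all genes above background were highest. Their range of 1.15 was 0.62 without control 1 and 0.71 over all 21 measured. The B cell gene Cd79a read 5.85, 4.74, 5.36, 4.68 and 4.24, and Igll1, of the pre-B cell receptor, 5.38, 3.71, 4.03, 3.34 and 4.67. The neutrophil and lymphocyte means lay above their average on control 3 (0.11 and 0.12) and below it on control 4 (-0.23 and -0.50), as the stromal lists did. Macrophage genes were steadier, with a range of 0.37 (0.23 without control 3). As in the pericentral and bile acid lists, their mean was lowest on control 3, where 11 of 20 were lowest, against 17.7% of all genes above background. Their mean was highest on control 4 (0.15, with 9 of 20 highest) but nearly as high on control 2 (0.13, with 8 of 20). The shares over all genes above background were 25.5% and 17.4%. On control 2 the pericentral and bile acid means lay below their average (-0.10 and -0.18).

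Several of the most variable genes spanned far more than the mean of any list above. Hamp, which encodes the iron hormone hepcidin and is in the acute phase list, had the widest span of the named genes above background, 36.8-fold, and read 5.72 on control 1 against 10.92, 8.57, 8.86 and 9.45 on the others. Serpina6, the corticosteroid-binding globulin, read 8.69, 5.37, 5.83, 8.14 and 7.84, and Sult2a2, a sulfotransferase of steroids, 7.22, 5.01, 5.02, 7.83 and 7.72. In both genes controls 2 and 3 were low and the other 3 arrays high. The mean of the hepatocyte list was also below its average on controls 2 and 3 (-0.18 and -0.08), by much less. Car3, carbonic anhydrase of hepatocytes and muscle, read 10.49, 7.61, 8.88, 9.73 and 10.02, and its second probe set followed the same order with an SD of 1.09. Another 15 predicted genes, small RNAs or receptor segments with SDs as large as those of the 30 most variable named genes were left unnamed.

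A few genes stood out on 1 array only. By Dixon's 95% critical value for the gap between the outermost array and its neighbour, 5.61% of genes above background had 1 array apart. Among named genes 24 of 273 did, but these include the 30 with the largest SD, which a lone array raises. Mnd1, a meiotic recombination factor, read 8.95 on control 4 and from 3.82 to 4.51 on the others. Cd3g, a chain of the T cell receptor complex, read 7.82 on control 1 and from 3.64 to 4.42 elsewhere, whereas Cd3e averaged 4.55 ± 0.54 with 5.32 on control 1. Odf3b (8.51) and Ankrd49 (7.69) were also highest on control 1, Snhg10 (7.90) and Hprt (8.82) on control 5, and Dmac1 (8.99) on control 2. Where a second probe set existed it did not always show the same: for Timm10b, highest on control 3 at 8.75, it had an SD of 0.07. Over the 895 genes with an SD of at least 0.5, 78 had another probe set, and of 74 such sets above background 41 had the same highest array, 43 the same lowest and 32 an SD of at least 0.5.

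**Figure D5:**
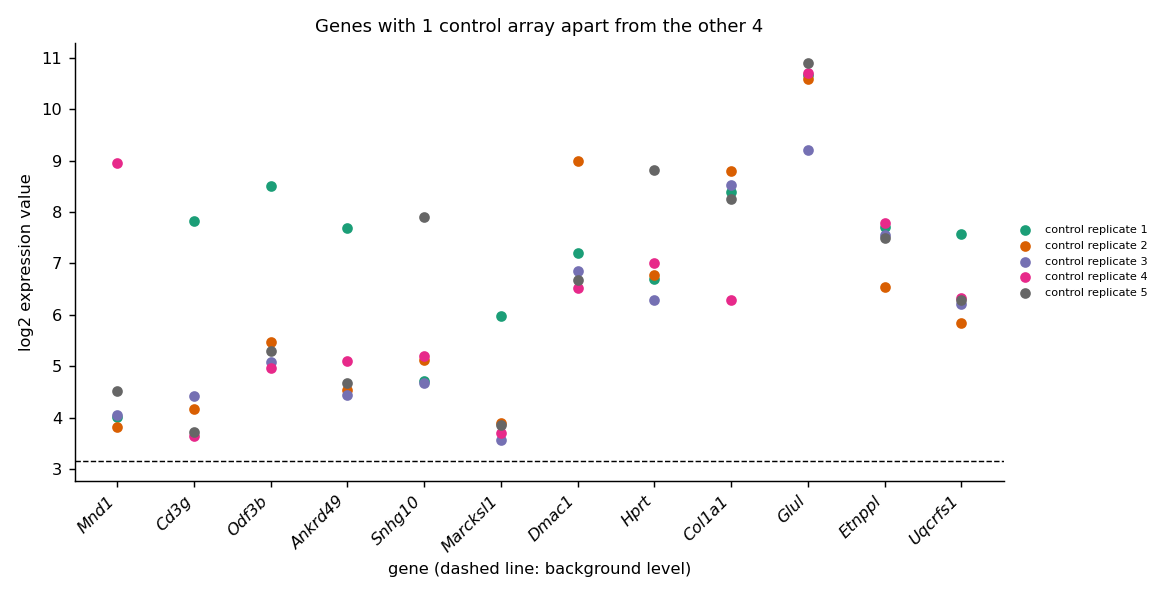
Log2 expression values on the 5 control arrays of 12 genes in which 1 array lay apart, 1 colour per array, with a dashed line at the background level of 3.161. Mnd1 is at 8.95 on control 4 and near 4 elsewhere, Cd3g is at 7.82 on control 1, and Col1a1 and Glul have their lone low value on control 4 and control 3.

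Sex-linked genes divided the 5 arrays. Xist, the RNA that silences an X chromosome in females, read 10.16 on control 1 and 9.43 on control 5, and from 2.34 to 2.91 on the other 3. Genes of the Y chromosome were the mirror image, as Kdm5d, Uty and Eif2s3y show: Eif2s3y read 2.63, 6.97, 6.58, 7.50 and 2.84. Controls 1 and 5 also carry their own sample-name numbers, so sex-linked signal and that number cannot be told apart here. The order of the stromal and pericentral lists did not follow this division, since their ends, controls 3 and 4, lay on the same side of it. Some other lists had their highest means on controls 1 and 5: erythroid (0.365 and 0.404) and megakaryocyte and platelet genes (0.486 and 0.444). So did cell cycle (0.103 and 0.208) and immediate early genes (0.178 and 0.110). A part of sex-linked signal or sample-name number in these means was not tested.

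Promoter sequences from RefSeq (GRCm38.p6), which the choice of arrays and genes did not use, were set beside level and spread. The letters TATAAA, the form of a core promoter element, were searched on both strands of the 300 bases from 250 before to 50 after the start, and 12.9% of 16918 genes with a promoter held them (exact 95% binomial interval 12.4 to 13.4%). The share was 7.66% of genes above background, 33.2% in the lowest of 10 bins by level, 6.51% in the seventh and 10.2% in the highest. In the top 1% by level it was 21.2% (15.2 to 28.4%, 34 of 160 genes). Among genes above background, the 10% with the largest SD held TATAAA in 13.1% of cases (10.8 to 15.5%). By list, 12 of 19 cytochrome P450 promoters, 7 of 15 of bile acid genes and 8 of 26 hepatocyte promoters held the letters, and 0 of 23 in the Notch list and 0 of 19 in the cell cycle list did. A match is a description of the letters and not a measured site. The 60 bases before the start follow for 7 genes, with TATAAA in capitals: Fabp1 and Alb, both among the 30 strongest; Cyp2e1, Cyp1a2 and Glul, all lowest on control 3; Ppbp, the variable platelet gene; and Col1a2, of the matrix list that was lowest on control 4.
Fabp1: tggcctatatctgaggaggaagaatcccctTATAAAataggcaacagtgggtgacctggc
Alb: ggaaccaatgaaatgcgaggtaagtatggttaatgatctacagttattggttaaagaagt
Cyp2e1: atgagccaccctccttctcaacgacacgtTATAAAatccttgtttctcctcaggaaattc
Cyp1a2: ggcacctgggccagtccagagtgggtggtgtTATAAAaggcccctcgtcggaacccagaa
Glul: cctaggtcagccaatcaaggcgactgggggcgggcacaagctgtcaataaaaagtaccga
Ppbp: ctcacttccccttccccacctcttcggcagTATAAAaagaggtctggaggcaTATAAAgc
Col1a2: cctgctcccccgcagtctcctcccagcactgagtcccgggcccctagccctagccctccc

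These stretches lie at chr6:71199819-71199878 (plus strand) for Fabp1, chr5:90460810-90460869 (plus strand) for Alb, chr7:140763759-140763818 (plus strand) for Cyp2e1, chr9:57683656-57683715 (minus strand) for Cyp1a2, chr1:153899869-153899928 (plus strand) for Glul, chr5:90768458-90768517 (plus strand) for Ppbp and chr6:4505558-4505617 (plus strand) for Col1a2. In Fabp1, Cyp1a2 and Cyp2e1 the match begins 30, 29 and 31 bases before the start. Ppbp holds 2 matches. Alb, Glul and Col1a2 hold none in these 60 bases or in the 300 searched. The pericentral genes shown therefore include both kinds, Cyp2e1 and Cyp1a2 with the letters and Glul without, and so do the strongest genes, Fabp1 with and Alb without.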

How the data were processed

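RNA of 5 control portal tract samples was measured on single-colour arrays. The authors deposited log2 values of 33649 probe sets, which run from 1.08 to 12.47. Partek 6.6 and RMA are listed in the submitters' processing notes, which do not say in what order or for what step. RMA as commonly run subtracts background and equalizes array distributions, which narrows differences between dim genes. Scanner output, and with it saturation flags, was not used here. Columns of no sample numbered 0, and 0 pairs of arrays held identical values.

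The platform annotation gives 23521 probe sets 1 symbol, 1814 several and 8314 none. Where a gene had several sets (1082 genes) the one with the highest mean over all 10 arrays was taken, and 21994 genes matched RefSeq by Entrez identifier. Means, SDs, list means and principal components were computed with Python 3.11.15, numpy 2.4.6, pandas 2.3.3, and exact (Clopper-Pearson) intervals with scipy 1.17.1. The steps were tested on simulated data. The background level lets 48 of 1425 chemosensory genes (3.37%) pass on all 5 arrays.

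The members and the 42 gene lists (734 of 813 entries measured) were chosen with earlier results of these data known. Genes named are the 30 highest, the 30 most variable above background, the 10 steadiest in the top 25% by level, of each list the 4 highest and 2 most variable members and up to 4 defining markers, and the sex-linked genes. Other list members are named as examples, chosen after their values were seen. Alternatives were leaving out each array, other normalizations, backgrounds, probe set rules and promoter windows.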

Additional observations from a re-analysis of the deposited data

Results flagged for a closer look

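Among 273 named genes above background, 24 (8.79%) had 1 array apart from the other 4, with a gap to the nearest array, as a share of the whole range, above Dixon's 95% critical value. The share was 5.61% over all genes above background, and chance flags about 1 in 20. The named genes include the 30 with the largest SD, which a lone array raises, so these shares are not of like sets. Among lists with at least 2 members above background, 0 list means had an array apart; the mesothelial list has 1 such member, Wt1, which is among the 24.

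Control 1 was the high array for Cd3g (7.82), Odf3b (8.51), Ankrd49 (7.69), Hspb11 (7.31), Marcksl1 (5.97) and Uqcrfs1 (7.57), a subunit of respiratory complex III. Control 2 was the high array for Dmac1 (8.99), the natural killer cell receptor gene Ncr1 (4.45), the neuronal gene Uchl1 (3.98) and the muscle gene Tnnc2 (4.89). Control 2 was the low array for the periportal gene Etnppl (6.54), the venous and lymphatic receptor gene Nrp2 (4.21) and the Notch protease gene Adam10 (7.21). Control 3 was the low array for the mitochondrial gene ND5 (11.44) and for Glul (9.22).

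On control 4 the high values were those of Mnd1 (8.95), the bile acid carrier Slc10a1 (10.30), the fatty acid oxidation enzyme Acaa2 (10.12), Ndufa4 (10.57) and Wt1 (3.69), and the low value was that of Col1a1 (6.30). On control 5 Snhg10 (7.90), Hprt (8.82) and the endothelial receptor gene Kdr (7.00) were high. Several of these gaps are small in size: Kdr had an SD of 0.07 and Adam10 one of 0.11, so that the array apart differed little from the rest, whereas Mnd1 had an SD of 2.19.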

How the results depend on the processing

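No paired analysis was possible because only the control group was described and no test was made. With background at the 99th percentile of the chemosensory genes (4.94), 6270 genes in place of 11950 were above it and 413 in place of 895 had an SD of at least 0.5; at a minimum SD of 1 there were 43. Leaving out each array in turn gave 11922 to 12181 genes above background, 785 to 1072 with an SD of at least 0.5 and 46 to 58.9% of variance on the first component. The range of the list mean ran from 0.64 to 1.44 for pericentral genes (lowest without control 3), and from 0.50 to 1.18 for matrix and 0.54 to 1.00 for portal fibroblast genes (lowest without control 4). TATAAA in the top 10% by level and by spread, 10% and 13.1%, was 2.63% and 3.11% within 50 to 15 bases before the start on the gene's strand, 3.32% and 4.07% for TATATA, and 8.02% and 9.44% in the top 25%. Within those 50 to 15 bases the share was 2.93% of all promoters and 1.56% of genes above background. For TATATA these shares were 4.86% and 2.26%. The other 112 values of these kinds, and 4841 for single lists and genes, moved by less than the spread or by less than 1.5-fold, and 217 moved by more. The array at each end of a list could change: without control 4, 23 of 36 lists kept their highest and 23 their lowest array. Without control 3, 24 and 25 did, and a list loses any end held by the array left out. After quantile normalization 31 of 36 lists kept their highest and 34 their lowest array, and in 28 and 31 of the 36 the highest and the lowest of controls 2, 3 and 4 was also the highest and the lowest of all 5.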

Other observations

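The mean of the clock genes had the smallest range of the lists, but the genes themselves were no steadier than others, with a median SD of 0.25 against 0.24 over all genes above background. Of 16 measured, 14 were above background, and their mean had a range of 0.03, or 1.02-fold, and single members went different ways: Per1 read 6.38, 5.76, 6.86, 5.17 and 5.76. With all measured members the range was 0.07. Ribosomal protein genes had a range of 0.18 and oxidative phosphorylation genes one of 0.32. Of the latter, 13 of 26 were lowest on control 2, against 17.9% of all genes above background, and the range was 0.15 without that array.

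Cholesterol synthesis genes were all above background (17 of 17), and 10 were highest on control 1, against 16% of all genes above background. Insig1, the sterol-sensing regulator, read 8.86 on control 1 against 7.51 to 8.28 elsewhere. Cell cycle genes were highest on control 5 in 13 of 23 cases and lowest on control 2 in 14, with a range of 0.44. Of all genes above background, 17.1% were highest on control 5 and 17.9% lowest on control 2. Immediate early genes were lowest on control 4 in 10 of 19 cases, against 23.7% of all genes above background. Ccn2, a secreted matrix regulator, read 5.65 on control 4 against 6.68 to 7.21 on the others. Interferon-stimulated genes had a range of 0.38, with Irf7 at 6.34, 5.88, 5.56, 4.97 and 4.79. None of these differences was tested.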
